A study of Homo sapiens with 20 samples.

Results

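MYC promoter sites with a canonical E-box are places near the start of a protein-coding gene where the transcription factor c-Myc (MYC) was found by chromatin immunoprecipitation and sequencing (ChIP-seq) and where the DNA holds the hexamer CACGTG. The summits (the single-base peak positions) of the 6 deposited MYC lists were pooled, and neighbours 250 bp or less apart were chained into 2348 sites. Of these, 1773 had their median summit within 1 kb of the start of a transcript of a protein-coding gene (transcription start site, TSS). A CACGTG lay wholly within 100 bp of the median summit at 497 of the 1773 promoter sites, or 28.0%, and these 497 sites are the members. The 1276 promoter sites without it are the comparison set. The rule used position and sequence and no score.

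The cells were PC-3, an established human prostate cancer line, either wild type (WT) or the line labelled PSD10, in which the kinase gene SLK was knocked out (SLK-KO). MYC and RNA polymerase II (POL2) were each profiled in 3 biological replicates of each genotype, and the labels do not say whether the knockout line is 1 clone. The study's title calls SLK a co-regulator of c-Myc, and the comparison of genotypes addresses whether its loss goes with a change in where MYC is found. Libraries made with IgG (6) and from input chromatin (2) did not enter the results.

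MYC binds DNA as a dimer with MAX through basic helix-loop-helix regions, and CACGTG is the hexamer that the dimer reads best. The hexamer is a palindrome, so it reads the same on both strands and each of its sides is contacted by a single subunit. Many other dimers of the same fold read it too, among them the MXD repressors, USF, the MITF and TFE factors of the lysosome, BHLHE40 and the CLOCK and BMAL pair of the circadian clock, and the base just outside the hexamer is known to weigh differently with each of them. MYC is best known for binding promoters of growth genes, such as those for ribosome assembly, nucleotide synthesis and translation.

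The number of MYC summits was 365, 201 and 267 in the WT lists and 1218, 1420 and 988 in those of SLK-KO. The POL2 lists held 5047 to 19017. Each summit carries the −log10 q-value of its own library, and sites were compared by rank within a library (rank 1 is the best-scored summit). Read depth is not in the lists, so depth, antibody recovery and the amount of MYC on the DNA cannot be told apart. The epithelial keratin genes KRT8 and KRT18 had a POL2 summit near a start in 3 of 3 libraries of each genotype, EPCAM in 1 WT and 3 SLK-KO and CDH1 in 1 WT and 0 SLK-KO. SLK had a POL2 summit in 2 WT and 3 SLK-KO libraries, which does not check the knockout, since a summit near the start can remain when the protein is lost.

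The following windows show the E-box of 8 of the 10 members with the best median rank among those found in all 6 libraries. The other two, MFSD3 and EIF3E, are described by their ranks only. Each is 30 bases of the GRCh38 reference, read 5′ to 3′ on the strand of the gene whose start is nearest, with the E-box in capitals.
NME1: agtgctgcgaacCACGTGggtcccgggcgc
SNX5: aagggtaggcccCACGTGgcgtctttgccc
DDX42: gctgtgtgggacCACGTGgccagaggcaag
ENSG00000288000: tacgggcgcgcgCACGTGcgcgtcctggct
G6PC3: tgcaacagtggcCACGTGgggccctgagga
NPM1: aaccgctgggagCACGTGgttgccacgtgg
RPSA: gcctgcggcccgCACGTGgccaggctcggg
METTL1: ggcctgcgcctcCACGTGgatttggtagag

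The windows lie at chr17:51153581-51153610 on the plus strand for NME1, chr20:17968674-17968703 on the minus strand for SNX5, chr17:63773837-63773866 on the plus strand for DDX42 and chr20:43458289-43458318 on the plus strand for ENSG00000288000. They lie at chr17:44070670-44070699 on the plus strand for G6PC3, chr5:171388562-171388591 on the plus strand for NPM1, chr3:39406902-39406931 on the plus strand for RPSA and chr12:57772102-57772131 on the minus strand for METTL1. NPM1 has a second CACGTG in the same window, printed in lower case. ENSG00000288000 is a gene model that shares its start region with the splicing factor gene SRSF6. 

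A second set shows members found in all 3 SLK-KO libraries and in no WT library, the class that bears on the genotypes.
KMT2D: gggcttcgttccCACGTGtctgccctgctg
ADGRE5: tcttactgagtgCACGTGtgtgtgtgtgtg
CYTH1: gcatggctgcagCACGTGgcagtgggggag
LONP1: cgcgccgggcgtCACGTGcgtttcgcggcg
RPS19: tagagccgcggcCACGTGcgagcggcaggc
CLINT1: gtggccgaggccCACGTGggggagggggga
CCDC124: aagccgccggacCACGTGtgtagtcgcagc

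These windows lie at chr12:49060898-49060927 (minus strand) for KMT2D, chr19:14381251-14381280 (plus) for ADGRE5, chr17:78717078-78717107 (minus) for CYTH1 and chr19:5720178-5720207 (minus) for LONP1. The windows of RPS19, CLINT1 and CCDC124 lie at chr19:41860403-41860432 (plus), chr5:157858880-157858909 (minus) and chr19:17932709-17932738 (plus). The ADGRE5 hexamer runs into a stretch of alternating t and g.

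A further set shows E-boxes with other contexts. At ASPSCR1, BYSL and NAT10 the hexamer spans a TSS. PPRC1 has the most E-boxes of all members. At TFAP4 the hexamer is the farthest from a TSS.
ASPSCR1: ccggcggcgggtCACGTGagcggaaaatgg
BYSL: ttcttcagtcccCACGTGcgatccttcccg
NAT10: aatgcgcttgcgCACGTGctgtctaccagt
PPRC1: ggcccgggcatcCACGTGggtcgggctcct
TFAP4: agcttcccgccgCACGTGggtttcctctgc

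Their windows are chr17:81977621-81977650 (plus), chr6:41921515-41921544 (plus), chr11:34105602-34105631 (plus), chr10:102133632-102133661 (plus) and chr16:4271722-4271751 (minus). The ASPSCR1 E-box has a t before the hexamer and an a after it, a context that proved scarce among the members.

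CACGTG was more frequent at MYC promoter sites than at coding promoters at large. It lay in 28.0% of MYC promoter windows of 201 bp and in 5.88% of the 19970 windows of the same length centred on coding gene starts. The 7 other hexamers that, like CACGTG, are palindromes with CG at the centre and hold each base at least once lay in 1.02% to 8.07% of the same MYC windows and in 1.28% to 7.52% of the gene starts. A motif match is a description of letters, and each of these was sought on both strands.

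The bases next to the hexamer differed between the members and E-boxes that MYC left without a summit. On reading each E-box from both strands, the base just before the hexamer was C in 50.8% of reads over the members, G in 26.5%, A in 14.4% and T in 8.35%. Over all 19240 CACGTG within 1 kb of a coding TSS, C stood there in 31.8% and T in 20.1%. The E-boxes that fit the question best are the 1788 with a POL2 summit of some library within 250 bp but no MYC site, since their promoters carried polymerase: there C made up 31.2% and T 33.6%. A T before the hexamer on either strand was held by 71 members (14.3%) and by 945 of those 1788 E-boxes (52.9%). The members were not chosen by POL2. Among the 356 E-boxes with a POL2 summit within 250 bp that lay at a MYC site, 66 had such a T.

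Among the symmetric forms of the octamer, CCACGTGG was the commonest in the members, at 128 of 497 (25.8%), against 8.89% of the E-boxes with POL2 and no MYC. Of the E-boxes with a POL2 summit, 88 of 247 with CCACGTGG lay at a MYC site (35.6%), 20 of 124 with GCACGTGC (16.1%), 7 of 64 with ACACGTGT (10.9%) and 12 of 268 with TCACGTGA (4.48%). TCACGTGA is the form that the MITF and TFE family is known to prefer. Of the 40 members in all 6 libraries, 0 had a T before the hexamer on either strand (a C made up 52.5% there and a G 33.8%), and 37 of the 217 members in a single library did (17.1%).

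The same order was seen within each library, which the pooled counts cannot show. Of the 247 POL2-marked E-boxes with C before the hexamer on both strands, a MYC summit within 100 bp was found at 13.4%, 6.88% and 8.50% in WT. In SLK-KO the values were 21.5%, 23.5% and 20.6%. For the 1011 with a T on either strand the WT values were 0.791%, 0.297% and 0.692% and the SLK-KO values 3.36%, 3.96% and 2.37%. The 886 others lay between, at 4.40% to 6.55% in WT and 11.9% to 15.0% in SLK-KO. In each of the 6 libraries the share was highest with C on both strands and lowest with T, in WT and in SLK-KO cells alike. The Wilson 95% intervals of these 2 classes came nearest in WT replicate 2, at 4.34 to 10.7% and 0.101 to 0.869%. These flanking classes were chosen after the bases had been seen, so no test was made of them.

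**Figure D1:**
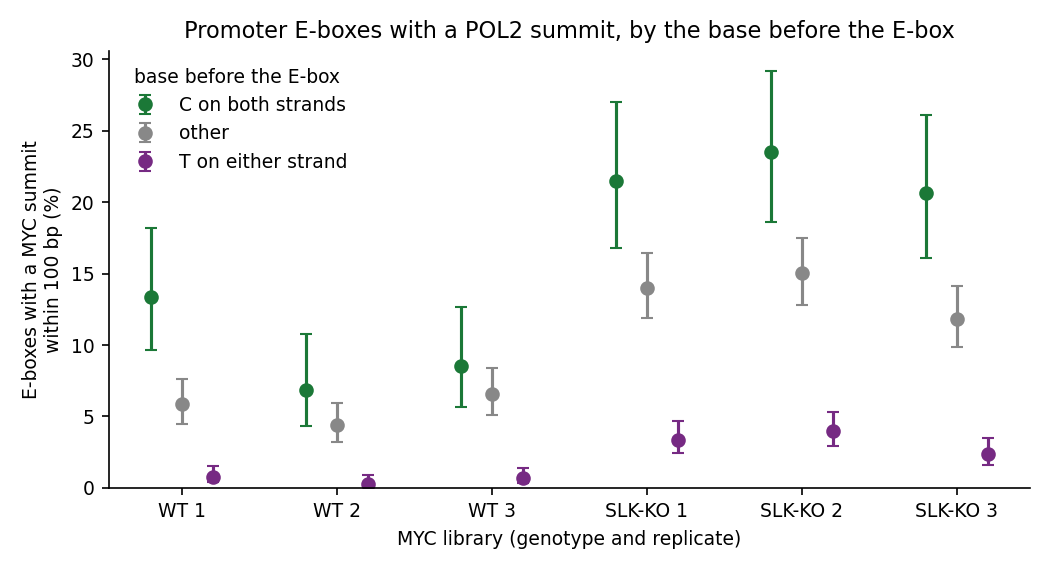
Percent of promoter E-boxes with a POL2 summit that had a MYC summit within 100 bp (y axis), for each MYC library (x axis), by the base before the hexamer; bars are Wilson 95% intervals for counting error. E-boxes with T on either strand stayed at or below 3.96% in every library, while those with C on both strands reached 20.6% to 23.5% in the SLK-KO libraries.

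MYC summits sat close to the E-box. The median distance from a member's median summit to the centre of its nearest E-box was 24.5 bp (quartiles 10.5 and 48.5 bp), with 124 members (24.9%) within 10 bp, 255 (51.3%) within 25 bp and 42 (8.45%) beyond 75 bp. In single libraries the median was 19.5, 30.0 and 26.0 bp in WT and 28.5, 25.5 and 28.0 bp in SLK-KO. The same distance for the 7 other palindromes, at promoter sites chosen by the same window, was 53.2, 53.2 and 52.8 bp in WT and 53.9, 60.7 and 50.8 bp in SLK-KO, close to the middle of the window. The E-box was nearer in 6 of 6 libraries, with an average difference of −27.8 bp (exact two-sided sign-flip permutation test over 6 libraries, p = 0.03125, the smallest it can give; Benjamini-Hochberg adjusted over 8 tests, 0.0833). The adjusted value does not pass 0.05, and none of the 8 tests could, since the smallest adjusted value they can give is 0.0625. The size goes with the window, at −11.0 bp when the hexamer was sought within 50 bp and −65.2 bp within 200 bp. The edge of the window was thinly filled: 18 members had their E-box end 91 to 100 bp from the summit, and 18 promoter sites had one just outside, at 101 to 110 bp.

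**Figure D2:**
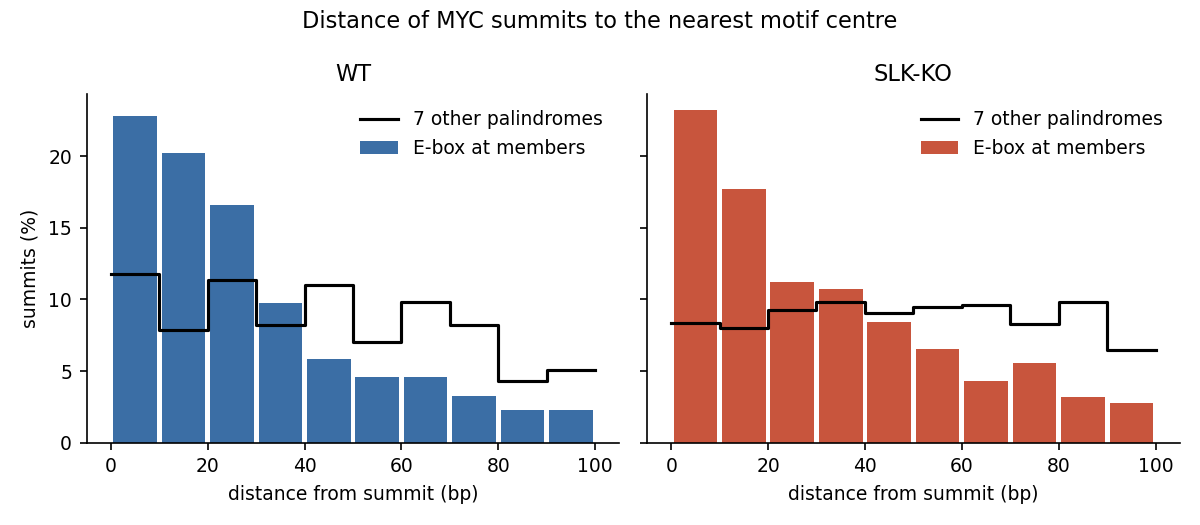
Percent of MYC summits of each genotype (y axis) by distance to the centre of the nearest motif in bp (x axis, bins of 10 bp). Bars show the E-box at members (307 WT and 875 SLK-KO summits) and the line the 7 other palindromes (255 and 908 summits): the first bin held 22.8% and 23.2% for the E-box against 11.8% and 8.37% for the others.

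The E-boxes clustered around the gene start, on both sides of it. The nearest coding TSS was a median of 105 bp away (quartiles 31 and 280 bp). The hexamer lay upstream in 253 members (50.9%), downstream in 210 (42.3%) and across the TSS itself in 34 (6.84%), and 328 (66.0%) lay within 200 bp. METTL1, NME1, ASPSCR1, BYSL and NAT10 are the best-ranked of the 34. The farthest E-boxes were 1092 bp into TFAP4, 967 bp into SLC34A1 and 945 bp into HOXA11, each in an intron. At the edge of the promoter distance, 5 members had their summit at 901 to 1000 bp of a TSS, and 4 sites with the hexamer stood just outside, at 1001 to 1100 bp.

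Against the canonical transcript of each gene the E-boxes stood farther from the start and were more often downstream of it. The median distance was 287 bp in either direction. Downstream of the canonical start lay 259 members (52.1%) and upstream 235 (47.3%), and 64 (12.9%) were more than 1000 bp from it on either side. NPM1, which encodes nucleophosmin, a nucleolar chaperone, is an example: its E-box was 33 bp upstream of the nearest annotated start but 725 bp into the canonical transcript, in an intron. NCL, the gene of nucleolin, had its E-box 159 bp upstream of an alternative start and 627 bp inside the canonical transcript. By annotation 173 E-boxes (34.8%) were intronic, 133 (26.8%) in a UTR, 48 (9.66%) in coding sequence, 24 (4.83%) in a non-coding exon and 119 (23.9%) outside transcripts.

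**Figure D3:**
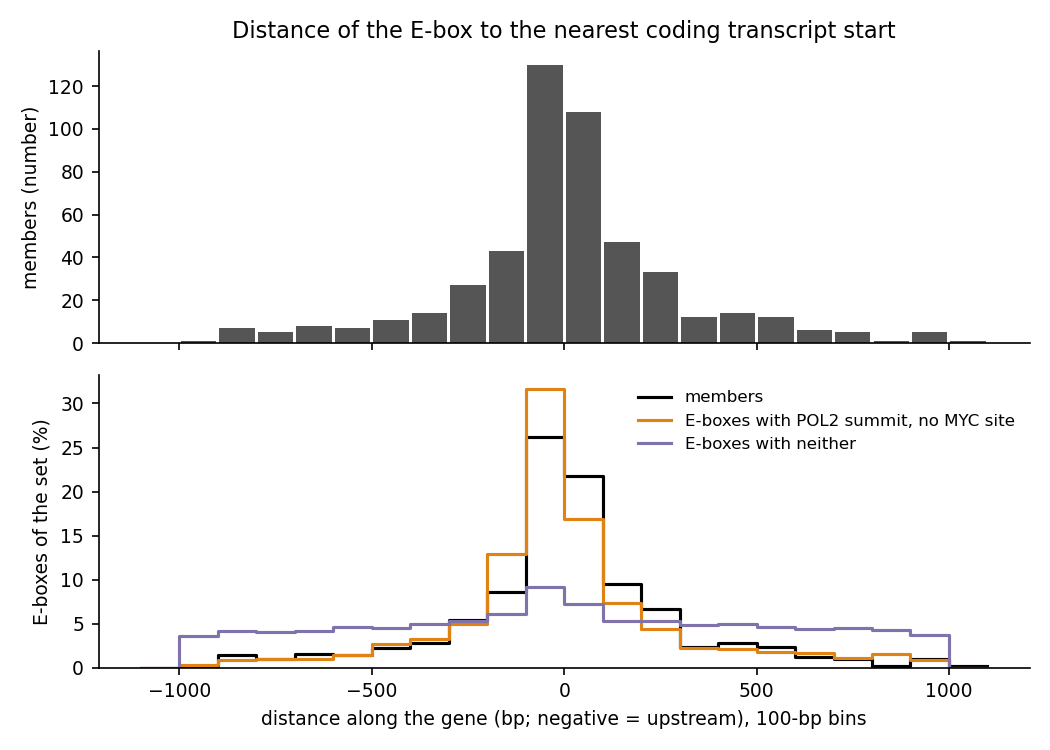
Distance of the E-box to the nearest coding TSS in bp (x axis, 100-bp bins, negative upstream). The upper panel counts the 497 members and the lower panel gives each set as percent. The bin just upstream and the bin from 0 to 100 bp held 26.2% and 21.7% of members. They held 31.6% and 16.8% of E-boxes with POL2 and no MYC, and 9.14% and 7.27% of E-boxes with neither. Hexamers across the TSS have distance 0 and are counted in the bin from 0 to 100 bp.

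Nearness to the start was shared with promoters that carried POL2 without MYC. The median distance was 107.5 bp for the 1788 E-boxes with POL2 and no MYC site, and 418 bp for the 16900 with neither. Of all 19240 promoter E-boxes, 552 (2.87%) lay at a MYC site, and of the 2144 with a POL2 summit, 356 did (16.6%). Among the latter the share was 19.5% for E-boxes within 50 bp of a TSS, 17.8% at 51 to 100 bp, 16.6% at 101 to 200 bp, 14.5% at 201 to 400 bp and 10.9% at 401 to 1000 bp. MYC summits at members stood a median of 106, 74.5 and 112.5 bp from the nearest TSS in WT and 104.5, 105 and 102.5 bp in SLK-KO, against 88, 75 and 83 bp and 85, 94 and 100.0 bp at other promoter sites. The member value was larger in 5 of 6 libraries, by 13.3 bp on average (exact sign-flip permutation p = 0.0625, adjusted 0.125). It was 6.80 bp without WT replicate 3, 4.33 bp with scores of at least 5 and 43.0 bp with a single TSS per gene.

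In GC content and in several other motifs the members and the other MYC promoter sites were near each other. Median GC content over the 201 bp was 69.2% and 68.7%, against 63.2% at gene starts. The median number of CpG (C followed by G) was lower at members, at 18 (quartiles 13 and 24) against 20 (15 and 25), and 15 at gene starts. With the E-box itself left out, GGGCGG, the letters read by SP1, lay in 56.5% and 56.2% and in 46.9% of gene starts. CCAAT, the letters of NF-Y, lay in 11.5% and 12.7% of the MYC windows and in 26.0% of gene starts, and TATAAA in 1.21%, 1.72% and 7.11%. The gene-start windows are centred on the start and the MYC windows on median summits up to 1 kb from a start. Position therefore differs between them as well, and its part in these differences was not tested. CCGGAA, as in ETS sites, lay in 19.5%, 20.7% and 16.1%. Both near-canonical E-boxes were less frequent at members than at the other MYC promoter sites: CACGCG lay in 20.3% of members, 35.3% of the others and 10.0% of gene starts, and CATGTG in 7.44%, 12.5% and 6.09%. The palindromic NRF1 motif lay in 1.81%, 0.627% and 1.20%, and TGACGTCA, as in CREB sites, in 1.21%, 1.33% and 1.86%.

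Most members, 446 (89.7%), had a single CACGTG in the window. There were 47 with 2 (9.46%), 3 with 3 and 1 with 4, the last at PPRC1, a coactivator of mitochondrial biogenesis, where the E-boxes lay in an intron. The members with 3 were at the chromatin remodeller gene INO80, the pseudouridine synthase gene RPUSD4 and the arginine methyltransferase gene PRMT1. Of members in all 6 libraries 30.0% had 2 or more, and of members in a single library 8.29%.

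Members ranked better than other promoter sites in each library. The median rank percentile, where 0 is the best summit of the library and 100 the last, was 37.4, 40.0 and 40.2 at members in WT and 36.9, 34.2 and 36.8 in SLK-KO. At the other MYC promoter sites it was 53.8, 69.0 and 59.0 in WT and 53.5, 53.5 and 56.2 in SLK-KO. Members were better in 6 of 6 libraries, with an average difference of −19.9 percentile points (exact sign-flip permutation p = 0.03125, the smallest possible; adjusted 0.0833). With scores of at least 5 the difference was −13.0. By genotype the difference was −21.4 ± 6.66 (WT) and −18.4 ± 1.61 (SLK-KO; SD over 3 libraries), and the ranges overlapped (exact permutation p = 0.9, adjusted 0.9). The genotype difference of 3.01 was −0.51 without WT replicate 2 and 5.85 without WT replicate 1.

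**Figure D4:**
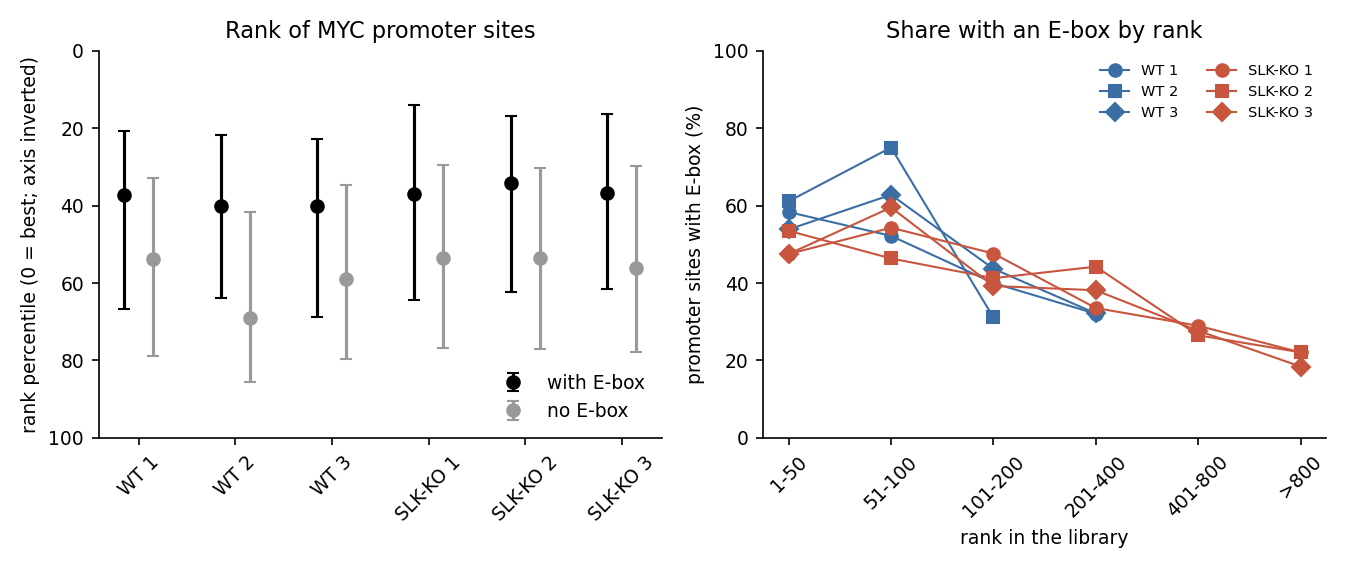
Left, rank percentile (y axis, inverted, 0 best) of members and other promoter sites in each MYC library, as median and quartiles; the member medians lie between 34.2 and 40.2 and the others between 53.5 and 69.0. Right, percent of promoter sites with an E-box (y axis) by rank in the library (x axis), which goes from 47.5% to 61.1% in the best 50 to 18.4% to 22.1% past rank 800.

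The share of promoter sites with an E-box followed the rank. It was 47.5% to 61.1% over the 6 libraries at ranks 1 to 50, 46.3% to 75% at 51 to 100, and 31.1% to 47.6% at 101 to 200. At ranks 201 to 400 it was 32.1% to 44.2% in 5 libraries, and in the 3 SLK-KO libraries 26.5% to 29.0% at ranks 401 to 800 and 18.4% to 22.1% beyond. It also differed with the number of libraries: 22.8% of the 951 promoter sites in a single library held an E-box, 27.9% of those in 2, 30.5% in 3, 44.1% in 4, 39.0% in 5 and 56.3% of the 71 in all 6. Within the members, the median distance of summit to E-box was 28.5 bp for those in 1 library and 18.5 bp for those in 6, and the median rank percentile 59.6 and 13.3. The distance is taken from the median summit, which rests on 1 library for the former and on 6 for the latter. The part of this in the shorter distance was not tested.

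NME1, which encodes a nucleoside diphosphate kinase and has long been described as a MYC target, was the best-ranked member. It stood at rank 3, 3 and 8 in WT and 3, 2 and 3 in SLK-KO, with −log10 q-values of 63.4, 35.0 and 29.3 in WT and 73.7, 106 and 91.2 in SLK-KO. Its E-box spanned a TSS (gene ENSG00000239672.8), 34 bp into the canonical transcript, in a UTR. The neighbouring paralogue NME2 had a member of its own with 2 E-boxes, at ranks 13, 35 and 29 in WT and 18, 46 and 44 in SLK-KO.

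SNX5, a sorting nexin of endosomal traffic, ranked 14, 5 and 12 in WT and 4, 7 and 6 in SLK-KO, with 2 E-boxes. DDX42, an RNA helicase of splicing, ranked 7, 4 and 4 in WT and 7, 12 and 50 in SLK-KO. MFSD3, a transporter of the major facilitator family, ranked 5, 6 and 6 in WT and 12, 10 and 8 in SLK-KO. EIF3E, a subunit of the initiation factor that loads the small ribosomal subunit, ranked 10, 7 and 7 and then 14, 15 and 9.

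The site at SRSF6 ranked 21, 11 and 29 in WT and 9, 4 and 11 in SLK-KO, with its E-box 247 bp inside the gene model. G6PC3, a glucose-6-phosphatase, ranked 6, 45 and 9 in WT and 6, 16 and 18 in SLK-KO, with its E-box 14 bp upstream of a start. NPM1 ranked 15, 58 and 35 in WT and 10, 8 and 7 in SLK-KO. RPSA, a protein of the small ribosomal subunit, ranked 25, 29 and 19 in WT and 15, 13 and 26 in SLK-KO. METTL1, a tRNA methyltransferase, ranked 92, 13 and 14 in WT and 21, 33 and 76 in SLK-KO. For NPM1 every SLK-KO rank was better than every WT rank, while those of METTL1 were mixed. A rank in a list of 201 and in a list of 1420 is not the same height, so no change is read from these.

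More members were called in the SLK-KO libraries, along with more MYC sites of every kind. The libraries held 123, 80 and 104 members in WT and 292, 331 and 252 in SLK-KO, 102 ± 21.5 against 292 ± 39.5 (SD, n = 3 each). The ranges did not overlap, and the mean log2 numbers differed by 1.52 (exact permutation p = 0.1, the smallest that 3 against 3 libraries can give; adjusted 0.133). As a share of the library's promoter sites the members were fewer in SLK-KO. The share was 40.6% (Wilson 95% interval 35.2 to 46.2), 47.9% (40.5 to 55.4) and 46.2% (39.8 to 52.7) in WT. In SLK-KO it was 31.0% (28.2 to 34.1), 30.1% (27.5 to 32.9) and 31.9% (28.7 to 35.2). The means were 44.9% ± 3.83 and 31.0% ± 0.884, which differed by −13.9 points (SLK-KO minus WT; exact permutation p = 0.1, adjusted 0.133).

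Both differences depended on list length. When each list was reduced to its best 201 summits, the length of the shortest, the WT libraries held 81, 80 and 86 members and the SLK-KO libraries 77, 73 and 75. The log2 difference was then −0.13 (exact permutation p = 0.1, adjusted 0.2), so its direction turned. The share became 48.2%, 47.9% and 50.6% in WT and 49.0%, 44.5% and 46.6% in SLK-KO, which differed by −2.19 points and overlapped (exact permutation p = 0.3).

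By presence, 35 members (7.04%) had a summit in all 3 SLK-KO libraries and in no WT library. The same class held 7.29% of the other MYC promoter sites and 6.94% of all MYC sites, so the members' share is near the background. The reverse class, 3 WT and 0 SLK-KO, held 0 members, against 0% of either background set, and 0 members had a summit in 2 WT libraries and no SLK-KO library. All 6 libraries shared 40 members (8.05%), against 2.43% of the other MYC promoter sites and 3.58% of all MYC sites. Both genotypes held 162 members (32.6%, against 17.6% of other promoter sites), SLK-KO libraries only 317 (63.8%, against 79.6%) and WT libraries only 18 (3.62%, against 2.82%), each of the 18 in a single library. The number in 3 SLK-KO and 0 WT libraries rested on the lists. It was 23 with summits of score 5 or more and 2 with lists of equal length. Leaving out any 1 library loosens the class to every SLK-KO and no WT library of those left, which more sites can meet. It then held 40 to 71 members: 54 without WT replicate 1, and 60, 57 and 71 without SLK-KO replicate 1, 2 and 3.

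The 35 were mostly of middle rank in the SLK-KO lists. Their median ranks ran from 63 to 993 with a median of 465. The longest WT list ends at 365, and 22 of the 35 had a median rank past that. Middle rank was not particular to members: for the 93 other MYC promoter sites of this class the median was 521, and 67 lay past 365. A median rank of 201 or better was held by 5 of those 93 (5.38%) and by 5 of the 35 (14.3%). The 5 members with a median rank of 201 or better are KMT2D, ADGRE5, CYTH1, LONP1 and RPS19. Of these, KMT2D and ADGRE5 stood at 201 or better in every SLK-KO list, while CYTH1, LONP1 and RPS19 did not. KMT2D, a histone lysine methyltransferase, stood at ranks 42, 63 and 87 with −log10 q-values of 24.0, 21.9 and 15.8, its E-box 116 bp upstream of the TSS. ADGRE5, an adhesion receptor, ranked 66, 76 and 83.

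CYTH1, an exchange factor for ARF proteins, ranked 110, 413 and 95, and had no POL2 summit within 1 kb in any library. LONP1, the mitochondrial matrix protease, ranked 77, 510 and 155. RPS19, a protein of the small ribosomal subunit, ranked 193, 641 and 95, its E-box 26 bp upstream of the nearest TSS. CLINT1, a clathrin adaptor, ranked 220, 238 and 375, CCDC124, a ribosome-associated protein, 286, 197 and 249, and DCAF13, a ribosome assembly factor, 419, 288 and 235. Of these 8 members, CYTH1, LONP1, RPS19, CLINT1 and DCAF13 each had 1 SLK-KO library in which the rank was worse than 365.

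POL2 summits lay less often right beside the MYC summit at members than at other promoter sites. A POL2 summit of the same-numbered library of the genotype lay within 250 bp at 46.3% (Wilson 95% interval 37.8 to 55.1), 28.8% (19.99 to 39.5) and 43.3% (34.2 to 52.9) of the members in WT. In SLK-KO the values were 52.1% (46.3 to 57.7), 44.4% (39.2 to 49.8) and 50.0% (43.9 to 56.1). At other promoter sites they were 65.6%, 48.3% and 55.4% in WT and 60.4%, 58.9% and 58.1% in SLK-KO. Members were lower in 6 of 6 libraries, with an average difference of −13.6 points (exact sign-flip permutation p = 0.03125, the smallest possible; adjusted 0.0833). The difference was −16.9 ± 4.20 in WT and −10.3 ± 3.63 in SLK-KO (exact permutation p = 0.2, adjusted 0.229), and this genotype difference of 6.64 points was 2.81 with the hexamer sought within 50 bp. WT replicate 2, with the lowest value, also had the shortest POL2 list, at 5047 summits.

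**Figure D5:**
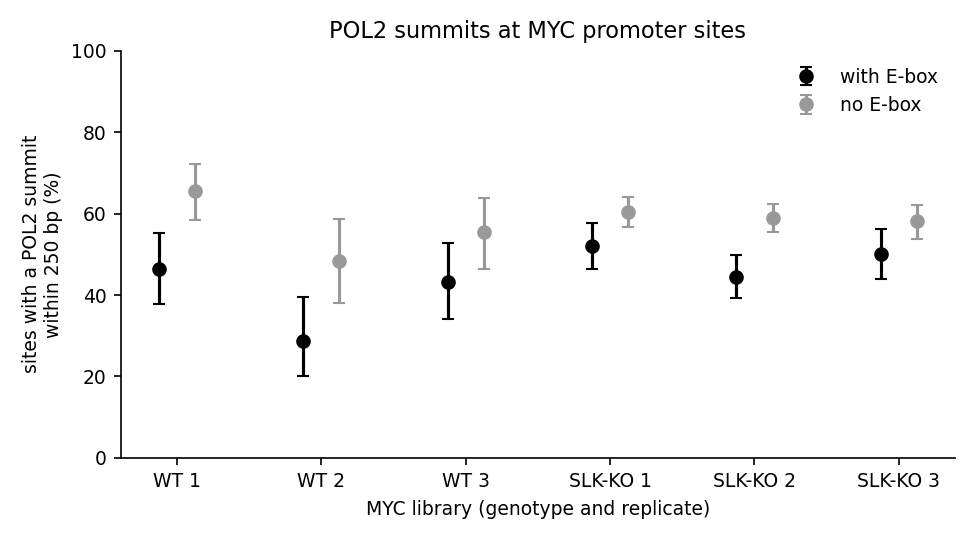
Percent of MYC promoter sites with a POL2 summit within 250 bp (y axis) in each MYC library (x axis), for sites with and without an E-box; bars are Wilson 95% intervals. Sites with an E-box lie at 28.8% to 52.1% and those without at 48.3% to 65.6%, with the former lower in every library.

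Polymerase was nonetheless near most members. Over all 6 POL2 libraries, 332 members (66.8%) had a summit within 250 bp in at least 1 library, against 974 other sites (76.3%), and within 1 kb the numbers were 474 (95.4%) and 1232 (96.6%). Within 1 kb the average difference inside a library was −6.11 points. A POL2 summit within 250 bp in all 6 libraries was held by 67 members (13.5%) and 307 other sites (24.1%). Among the 474 members the nearest POL2 summit was a median of 146.5 bp from the E-box and lay downstream of it in 49.4%. RPSA, METTL1, EIF3E and RPS19 had POL2 within 250 bp in all 6 libraries. PPIA, PRMT1 and BYSL had it in 0 libraries within 250 bp and in 6 within 1 kb.

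Members lay at 577 of 20020 protein-coding genes (2.88%), at 5.35% of the 10777 genes with a POL2 summit at a start, and at 29.9% of the 1931 genes with any MYC promoter site. Of the 577 genes, 53 had a member in all 6 libraries and 354 had members in SLK-KO libraries only. The share of 29.9% and these 2 counts are the background for the gene groups that follow, which were chosen with earlier results in view and are given as counts.

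Genes of ribosome biogenesis and the nucleolus had the largest share of the whole list with an E-box member among the 16 gene lists. Of 51 genes, 34 had a MYC promoter site and 18 a member (35.3% of the 51 and 52.9% of the 34). On the second share circadian clock genes (2 of 3) and cell cycle genes (5 of 8) stood higher and nucleotide synthesis was equal. The sites of 5 of the 18 were in all 6 libraries, against 53 of 577 over all genes with a member. NPM1 and NCL led, and NCL ranked 48, 12 and 78 in WT and 62, 253 and 167 in SLK-KO. RRS1, a factor of large subunit assembly, ranked 93, 71 and 63 in WT and 164, 239 and 496 in SLK-KO. The site between HSF2BP and RRP1B ranked 102, 86 and 46 in WT and 266, 68 and 91 in SLK-KO, with POL2 in all 6 libraries. BYSL and NAT10, an assembly factor of the small subunit and an RNA acetyltransferase, both had the hexamer across a TSS. Cytosolic ribosomal protein genes were often MYC sites, 55 of 79, and 17 of these held an E-box (30.9%), near the share of all genes. RPSA alone was in all 6 libraries, and 11 of the 17 had members in SLK-KO libraries only, near the 354 of 577 over all genes with a member. RPS23 ranked 157 and 204 in 2 WT lists and 19, 35 and 104 in SLK-KO, RPL22 97 and 52 in 2 WT lists and 314, 82 and 364 in SLK-KO.

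Of 78 mitochondrial ribosomal protein genes 19 had a MYC promoter site and 1 of these a member (5.26%, against 29.9% over all genes), MRPL3, in 5 libraries. Of 31 genes of mitochondrial import and chaperoning 15 had a MYC promoter site and 5 a member (33.3%). These 5 were found in SLK-KO libraries only, as were 354 of 577 over all genes with a member, and 5 genes are too few to set apart from that. HSPA9, the mitochondrial chaperone mortalin, ranked 546, 1071 and 237 there, with its hexamer across a TSS. The import genes TIMM9 and TIMM44 were each in 2 SLK-KO libraries and TIMM8B in 1.

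Nucleotide and one-carbon synthesis had members at 9 of 17 genes with a MYC promoter site (52.9%), 4 of them in all 6 libraries. NME1 and NME2 are described above. PAICS, an enzyme of purine synthesis, ranked 22, 44 and 62 in WT and 25, 42 and 23 in SLK-KO. PPAT, which makes the first step of that pathway and is transcribed divergently from PAICS, had a separate member with its hexamer across a TSS, at ranks 993, 1064 and 300 in SLK-KO only. Polyamine synthesis had ODC1 and SRM. ODC1, ornithine decarboxylase and a classical MYC target, had 2 members. The one 22 bp upstream of its nearest start was in all 6 libraries, at ranks 189, 89 and 223 in WT and 232, 436 and 459 in SLK-KO. The other, 488 bp upstream, was in 2 SLK-KO libraries at ranks 884 and 779. SRM, spermidine synthase, was in 1 SLK-KO library.

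Translation factors had members at 8 of 19 genes with a MYC promoter site, with EIF3E and PABPC1 in all 6 libraries, PABPC1 at ranks 18, 88 and 26 in WT and 134, 27 and 48 in SLK-KO. EIF4A1, the helicase of cap-dependent initiation, was in 3 libraries. Aminoacyl-tRNA synthetases and their partners had members at 3 of 20 (15.0%), AIMP2, EARS2 and MARS2. Splicing had members at 5 of 23 (21.7%), with SRSF6 and PRMT1 in all 6 libraries. Chaperones had 4 of 9: PPIA, the cyclophilin, at ranks 76, 70 and 56 in WT and 34, 6 and 41 in SLK-KO, then HSP90AB1, HSPA8 and CDC37.

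Glycolysis had members at HK2, a hexokinase, and LDHB, a lactate dehydrogenase subunit, 2 of 6 genes with a MYC promoter site. LDHB was in the 3 SLK-KO libraries only, at ranks 796, 1333 and 846. Cell cycle genes had members at 5 of 8 (62.5%), BUB1B, CCND1, CDK6, E2F3 and MCM7, none in all 6 libraries. In the MYC and MAX network MXD1 and MXD3, both MAX-binding repressors, were members. MXD3 was in 5 libraries, at ranks 60 and 88 in 2 WT lists and 118, 99 and 192 in SLK-KO, and MXD1 in 3. Among other E-box factors SREBF1, the sterol regulator, was a member in 1 SLK-KO library. The clock genes CIART, with 2 members, and NR1D2, a nuclear receptor of the clock, were in WT and SLK-KO libraries. NR1D2 was in 4 libraries.

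Lysosome and proton pump genes are the textbook targets of the MITF and TFE factors, which read the same hexamer. POL2 was at the start of 38 of these 45 genes, a MYC promoter site at 1, and an E-box member at 0. Among all genes with POL2 the member share was 5.35%, which in a list of 38 is very few genes, so 0 members is near that background. A MYC promoter site was at 1931 of all 20020 protein-coding genes, a background that, unlike the one before, includes genes without POL2. Whether MYC is less often at lysosome genes was not tested.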

How the data were processed

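MYC and POL2 ChIP-seq summit lists of 12 libraries were used, 3 per antibody and genotype. Per the submitters' processing notes, 50 bp paired-end reads were processed with nf-core/chipseq 2.1.0 against GRCh38.p14, with BWA 0.7.18-r1243 and MACS3 3.0.1 among the tools. The control used in calling is not given in the sources used here. The deposited score of each summit was read as the authors' −log10 q-value, because each list ends just above 1.30103, which is −log10 of 0.05. It was used only to rank or filter within a list. Depth is unknown, and intervals cover counting error only.

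Sequence came from the GRCh38 FASTA and starts from GENCODE release 44. The 34961 RefSeq promoters of GRCh38.p14 were identical in that FASTA. The 53 MYC summits on sequences without a coding TSS could not be members. The 7 other palindromes are those of the same base composition as CACGTG.

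The library was the unit. WT and SLK-KO values were compared by two-sided exact permutation of labels (20 relabellings, smallest p 0.1), members with other sites by exact sign flips over 6 libraries (64 flips), with Benjamini-Hochberg adjustment over 8 tests. Values are mean ± SD. The labels do not say whether replicate numbers mark shared batches, and the main tests did not pair WT with SLK-KO libraries by them. Alternatives covered chaining distance, windows, TSS definition, score minimum, list length, motif centre, POL2 matching, leaving out each library and a replicate block. The steps were tested on simulated data.

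Members are named by the gene of the nearest start. Named are up to 10 in all 6 libraries and up to 8 in 3 SLK-KO and 0 WT by median rank, 5 with most E-boxes, 5 nearest to and 3 farthest from a TSS, and up to 4 per gene list. CCND1 was named to complete a count. Some of the cell type markers looked up are not reported here. The members and the 16 gene lists were chosen with earlier results of these data known. The software was samtools 1.23.1 and Python 3.11.15 with pysam 0.24.0, pandas 2.3.3, numpy 2.4.6, matplotlib 3.10.9 and scipy 1.17.1.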

Additional observations from a re-analysis of the deposited data

How the results depend on the processing

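Of 140 alternative values of the 8 tests, 137 kept their direction. The 140 include those of the replicate block, which uses the same effects and so could not reverse. No adjusted p fell below 0.05 in the reported values or in any alternative, but none could. With 6 libraries and 8 tests the smallest adjusted value possible is 0.0625, so passing 0.05 was out of reach whatever the data. The 3 that reversed were the genotype difference in rank, at −0.56 with the hexamer sought within 50 bp and −0.51 without WT replicate 2, and the log2 ratio of members, at −0.13 with lists of equal length. The last alternative keeps 201 summits per list, and with it the members numbered 169, those in every library 21, in 3 SLK-KO and 0 WT libraries 2, in 3 WT and 0 SLK-KO libraries 3, and in at least 2 SLK-KO libraries 70. With scores of at least 5, members in 3 SLK-KO and 0 WT libraries numbered 23. The distance of the summit to the TSS was 5.67 bp with promoters of 500 bp and 23.4 bp with starts of protein-coding transcripts alone. Of 96 alternative counts, 82 stayed within 1.5 times.

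Leaving out each library in turn gave 408 to 493 members, 40 to 54 in every library, 40 to 71 in every SLK-KO and no WT library, 0 to 1 in every WT and no SLK-KO library, 54 to 84 in at least 2 WT libraries and 166 to 258 in at least 2 SLK-KO libraries. These classes refer to the 5 libraries left, so those of every or no library are looser than with all 6. The genotype difference in rank ran from −0.51 to 5.85. Tests over 5 libraries cannot go below p = 0.0625 (exact sign flips). Taking same-numbered libraries as a replicate block leaves every effect unchanged by construction and alters only the p-value. The log2 ratio of members (1.52) and the POL2 difference (−13.6 points) were then both at the limit of 8 sign flips (exact p = 0.25). The deviations of same-numbered libraries correlated at 0.0265, 0.0399 and −0.0187, so the numbers are no evidence of pairing. Called summits limit every count: a site without a summit in a short list may lie below that list's threshold.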
